A study of Mus musculus with 3 samples.

Results

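S100g, Trpv6, Atp2b1, Vdr and Cyp24a1, 5 genes of calcium absorption and of the response to vitamin D, were followed by their symbols among the 31053 genes of the deposited matrices of mouse small intestinal cells. All 5 symbols were found, 4 genes had at least 1 UMI (a unique molecular identifier, the tag of 1 captured transcript) in a kept cell, and Cyp24a1 had none.

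The study set out to target mature enteroendocrine cells (EECs) genetically, and these single-cell data describe the unmodified gut. Epithelial cells and intraepithelial immune cells of C57BL/6N wildtype mice were taken from the duodenum, jejunum and ileum. Cells of 3 male mice aged 12 weeks were pooled, sorted as propidium iodide-negative, and profiled with the 10x Genomics 3′ chemistry. There was 1 library per segment, so that segment and library cannot be told apart, and differences between segments carry counting intervals and no test. Comparisons of cell classes, and of enterocytes along the villus, were made within the 3 libraries, which served as replicates of different segments.

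Dietary calcium crosses the enterocyte in steps. It enters through the channel Trpv6 in the brush border, is carried by the binding protein S100g (calbindin-D9k), and leaves through the basolateral pump Atp2b1 (PMCA1). The active form of vitamin D binds the receptor Vdr, which pairs with a retinoid X receptor on hexamers of the AGGTCA type and activates genes of this route, and Cyp24a1 degrades the hormone. The duodenum is known as the segment with the highest capacity for active calcium uptake.

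The libraries of duodenum, jejunum and ileum held 98518847, 87656078 and 78074516 UMIs, and 4255, 4360 and 8071 cells passed the filters. These were 44.8%, 53.6% and 84.1% of the barcodes. The ileal cells were shallower, with a median of 5536 UMIs against 12424 in the duodenum and 11737 in the jejunum, and had fewer mitochondrial UMIs, with a median of 11.1% against 27.1% and 27.2%. Between 20 and 28 barcodes were shared by each pair of libraries. The 14 jejunal and the 13 ileal kept cells that carried a duodenal barcode held 2 S100g UMIs each. Clusters were named by markers as enterocyte-like, goblet-like and so on, and the suffix is left out below. Enterocytes numbered 3220, 3184 and 3840, early enterocytes 360, 284 and 411, and cells of the intestinal stem cell and proliferating class (ISC) 76, 57 and 92, in the order duodenum, jejunum, ileum, which is used throughout. The summed level of the 12 enterocyte markers in the enterocyte clusters was 607, 1027 and 1031 UMIs per 10000 UMIs.

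S100g (ENSMUSG00000040808) lies on chrX:162961992-162964599 on the minus strand of GRCm38, Trpv6 (ENSMUSG00000029868) on chr6:41620624-41636405 on the minus strand, and Atp2b1 (ENSMUSG00000019943) on chr10:98914406-99026143 on the plus strand. Vdr (ENSMUSG00000022479) lies on chr15:97854425-97910630 and Cyp24a1 (ENSMUSG00000038567) on chr2:170482708-170497145, both on the minus strand. All 5 are protein-coding genes of the GENCODE annotation. RefSeq promoter entries of GRCm38.p6 were found for 4 of the 5 members. The 250 bases before the start were searched on both strands for AGGTCA, whose reverse complement is TGACCT. The promoters of S100g and Trpv6 are printed because these genes differed most between segments and both hold the hexamer, which is in capitals. They read 5′ to 3′ on the gene's strand and cover chrX:162964600-162964849 and chr6:41636406-41636655.
S100g: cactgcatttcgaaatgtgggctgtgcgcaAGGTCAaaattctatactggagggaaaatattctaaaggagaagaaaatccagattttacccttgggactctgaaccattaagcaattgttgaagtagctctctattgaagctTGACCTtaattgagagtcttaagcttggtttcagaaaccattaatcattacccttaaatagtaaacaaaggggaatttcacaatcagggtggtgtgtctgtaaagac
Trpv6: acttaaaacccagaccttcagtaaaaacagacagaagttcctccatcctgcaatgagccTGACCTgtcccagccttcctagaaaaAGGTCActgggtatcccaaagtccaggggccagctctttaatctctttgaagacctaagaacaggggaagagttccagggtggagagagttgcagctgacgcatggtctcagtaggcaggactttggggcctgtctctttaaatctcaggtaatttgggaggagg
In S100g, AGGTCA begins 220 bases and TGACCT 107 bases before the start. In Trpv6, TGACCT begins 191 bases and AGGTCA 165 bases before it. The hexamer was not in the same window of Vdr or of the 2 Atp2b1 entries. At least 2 hexamers were held by 446 of 32851 promoters (1.36%) and at least 1 by 4607 (14.0%). Hexamers as a direct repeat with a spacer of 3 bases were found in 2 promoters (0.00609%), neither of them a member's. These matches describe letters in a window, not binding.

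S100g was far higher in the duodenal library than in the distal ones. In enterocytes it stood at 41.2 UMIs per 10000 UMIs in the duodenum (168139 UMIs), 0.0265 in the jejunum (113 UMIs) and 0.399 in the ileum (1281 UMIs). The exact 95% Poisson intervals, which cover counting error only, ran from 41.0 to 41.4, from 0.0218 to 0.0318 and from 0.378 to 0.422, so that the order duodenum, ileum, jejunum was clear of counting error. The duodenal level was 1556 times the jejunal level (interval 1296 to 1888) and 103 times the ileal level (97.6 to 109). Among the 6969 genes with at least 0.1 UMIs per 10000 in either segment, the ratio to the ileum ranked 33. The ratios moved by more than these intervals with the choice of cells. They were 3862 and 166 with at most 20% mitochondrial UMIs, and 480 and 80.0 with early enterocytes included.

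With every cell thinned to 2000 UMIs, 59.1%, 0.570% and 2.44% of enterocytes had an S100g UMI. Without thinning, the shares were 83.0%, 1.73% and 5.62%, at median depths of 12213, 12282 and 6632.5 UMIs. T cells, which are not known as a source of this protein, had a UMI in 31.3% of duodenal cells after thinning, in none of 101 jejunal cells, which allows a share of up to 2.97%, and in 0.281% of ileal cells, at median depths of 4089, 4624 and 4246 UMIs. The shares in duodenal and ileal enterocytes therefore exceeded those in T cells, while the jejunal share lay under the limit that its T cells allow.

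The distal S100g UMIs sat in few cells. The 10 highest of 3184 jejunal enterocytes held 56.6% of that library's enterocyte UMIs, with 28 in the highest cell, and the level without these 10 cells was 0.0115 per 10000. In the ileum the 10 highest enterocytes held 48.9%, with 163 and 152 UMIs in the highest pair, and the level without the 10 was 0.205. By contrast the 10 highest duodenal enterocytes held 4.86% of the UMIs there. Ileal cells with at least 10 S100g UMIs numbered 41, of which 26 were enterocytes and 15 early enterocytes. None of the 41 carried a barcode of the duodenal library. Atp2b1 stood at 7.80 per 10000 in them (7.24 to 8.39) and at 3.29 (3.23 to 3.35) in the other ileal cells of these classes. The 41 cells were also deeper, with a median of 24557 UMIs against 7063.5, and 21 of them, against 712 of the other 4210, lay in cluster 7, where ileal Atp2b1 stood at 5.25. The only Trpv6 UMI of the ileal enterocytes was in a cell of this group.

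Trpv6 was sparse and nearly limited to the duodenal library. Duodenal enterocytes held 424 Trpv6 UMIs, or 0.104 per 10000 (0.0943 to 0.114), in 205 cells. No UMI was found in 3184 jejunal enterocytes, which allows up to 0.000703 per 10000, and 1 in 3840 ileal enterocytes. Against a floor of 3 UMIs the duodenal level was at least 147-fold higher than the jejunal level. The ratio to the single ileal UMI was 333, with a counting interval of 59.5 to 13097. Over all barcodes, before any filter, the libraries held 650, 2 and 2 Trpv6 UMIs. Outside enterocytes, duodenal goblet cells had 4 UMIs, early enterocytes 7, and ISC and IgA B cells 1 each. Trpv5, the related channel of the kidney, had 0 UMIs in all barcodes, which allows up to 0.000305, 0.000342 and 0.000384 per 10000 UMIs.

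Atp2b1, the exit pump, followed the same order of segments with smaller ratios. Its enterocyte level was 9.58 per 10000 in the duodenum (9.49 to 9.68), 1.19 in the jejunum (1.16 to 1.23) and 3.24 in the ileum (3.18 to 3.30). The duodenum was 8.04 times the jejunum (7.81 to 8.28, rank 60 of the 6734 genes with the same minimum level) and 2.96 times the ileum (2.89 to 3.02), and the jejunum was 0.368 times the ileum. T cells stood at 3.60, 0.826 and 1.55, or 37.6%, 69.3% and 47.9% of the enterocyte levels. Subtracting them would give ratios of 16.3 and 3.55. Enterocyte markers in jejunal T cells had a median of 8.93% of their enterocyte level, and the source of Atp2b1 UMIs in T cells was not tested.

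Vdr, the receptor, varied least. Enterocytes had 2.26 per 10000 (2.22 to 2.31), 1.14 (1.11 to 1.17) and 1.26 (1.22 to 1.30). The ratios of duodenum to jejunum, 1.99 (1.92 to 2.06), and to ileum, 1.79 (1.73 to 1.86), were both under 2-fold. With mitochondrial UMIs left out of the totals, which are a larger part of the duodenal cells, the ratio to the ileum was 2.13. In early enterocytes the receptor stood at 1.53, 1.59 and 1.56, and all 3 intervals overlapped.

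Cyp24a1, the enzyme that ends the vitamin D signal, had 0 UMIs in the kept cells of every library and 0, 3 and 0 UMIs over all barcodes. A count of 3 over all barcodes is 0.000305, 0.000342 and 0.000384 per 10000 UMIs. Expression under these levels was not detectable at this depth. Cyp27b1, which makes the active hormone, had 0, 2 and 1 UMIs over all barcodes.

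**Figure D1:**
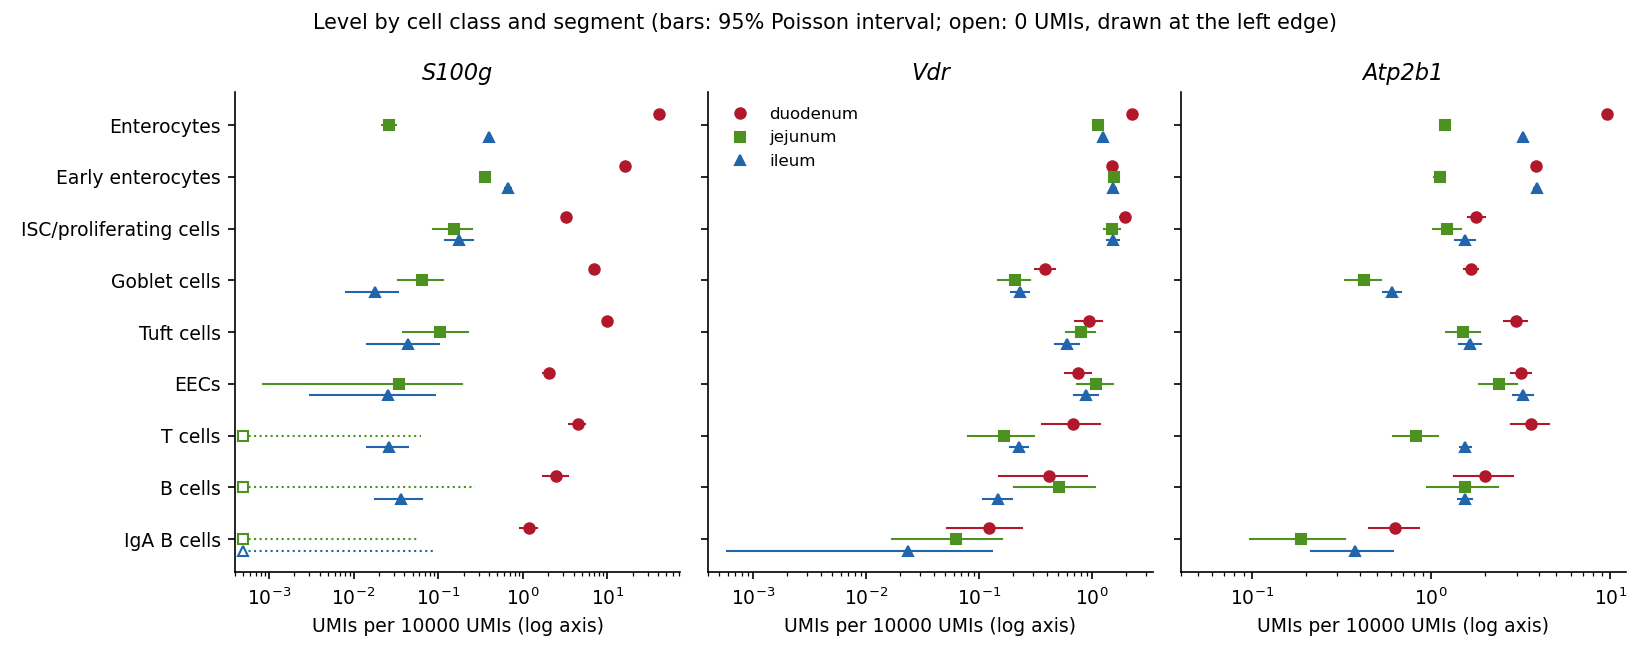
Level of S100g, Vdr and Atp2b1 (UMIs per 10000 UMIs, log axis) by cell class in the 3 libraries, with exact 95% Poisson intervals and open points at the left edge for classes with 0 UMIs. The duodenal S100g points lie above the jejunal and ileal points in all classes shown, whereas the Vdr points of the 3 libraries lie close together in early enterocytes (1.53, 1.59 and 1.56).

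Of the 4 members with the level asked for, S100g, Trpv6 and Atp2b1 were at least 2-fold higher in the duodenum than in the jejunum, a ratio reached by 9.16% of the 6734 genes with that level, while 4.72% were at least 2-fold lower. S100g and Trpv6 had that level in the duodenum alone, so their count is not read against the background. The same 3 were at least 2-fold higher in the duodenum than in the ileum, where 14.4% of 6969 genes were and 12.0% were lower, and Trpv6 again had the level in the duodenum alone. S100g, which had the level in the ileum alone, and Atp2b1 were at least 2-fold lower in the jejunum than in the ileum, where 8.65% of 6454 genes were and 4.88% were higher. Duodenal enterocytes lay mainly in clusters 0 (32.6%) and 3 (32.8%) and ileal ones in clusters 1, 2, 6 and 7 (18.3% to 19.8% each), so the segments were also set side by side within clusters. In every enterocyte cluster the duodenal S100g level was at least 15.4 per 10000, the jejunal level at most 0.0491 and the ileal level at most 1.07. Duodenal Atp2b1 was also above both distal levels in every one of these clusters, from 5.44 in cluster 6 to 17.3 in the 17 duodenal cells of cluster 7.

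Other genes of the pathway had several orders of segments. Of the 49 other genes of the list, 23 had the level needed in duodenum or jejunum, 2 were at least 2-fold higher in the duodenum and 4 lower, against the 9.16% and 4.72% of all genes given above. Against the ileum 4 of 24 were higher and 8 lower, beside 14.4% and 12.0% of all genes. Slc30a10, a manganese exporter known to respond to vitamin D, was higher in the duodenum than in both other segments, at 1.94, 0.433 and 0.332 per 10000. Cyp3a11, a drug-metabolising enzyme that also inactivates vitamin D and is induced through Vdr, stood at 15.9, 8.73 and 1.42. Slc34a2, the brush-border phosphate transporter, had the opposite order, at 0.631, 5.47 and 12.7. Cubn, a receptor for vitamin D-binding protein, stood at 0.854, 1.91 and 3.48, and S100a10 and Anxa2, partners of the Trpv6 channel at the membrane, at 7.19, 12.3 and 26.1 and at 3.83, 7.95 and 10.4. The junction proteins Cldn3, Cldn7 and Tjp1 were at least 2-fold lower in the duodenum than in the ileum.

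In the duodenum the levels of S100g, Vdr and Atp2b1 were highest in enterocytes among the named classes. So was that of Trpv6 among the classes with a Trpv6 UMI. Tuft cells and EECs had none, which allows up to 0.603 and 0.452 times the enterocyte level. In T, B, Paneth and macrophage or dendritic cells, which had none either, a count of 3 would be between 0.131 and 0.207 per 10000, above the enterocyte level. S100g stood in the duodenum at 41.2 per 10000 in enterocytes and 16.0 in early enterocytes. It then stood at 9.91 in tuft cells, 6.97 in goblet cells, 4.45 in T cells, 4.19 in macrophage or dendritic cells, 3.29 in ISC, 2.49 in B cells, 2.03 in EECs, 1.18 in IgA B cells and 0.618 in Paneth cells. The counting intervals of neighbours in this order were apart down to T cells (3.55 to 5.51), and overlapped from T cells to EECs (1.72 to 2.37) and between IgA B and Paneth cells. The unnamed cluster 4, which was left out of the tests, had 21.2, 0.0232 and 0.204 in the 3 libraries.

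In the jejunum and ileum the order of the classes was another. S100g stood at 0.355 and 0.669 in early enterocytes and at 0.153 and 0.179 in ISC. Goblet cells had 0.0646 and 0.0178, tuft cells 0.105 and 0.0439, and EECs 0.0340 and 0.0255, from at most 12 UMIs each. The 12 UMIs of jejunal goblet cells lay in 2 of 163 cells and the 6 of jejunal tuft cells in 1 of 67. In both distal libraries early enterocytes therefore stood highest among these classes, while in the duodenum mature enterocytes did.

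Atp2b1 was present in all epithelial classes. EECs had 3.19, 2.38 and 3.27 per 10000, with overlapping intervals in the 3 libraries (2.81 to 3.61, 1.86 to 3.01 and 2.88 to 3.70). Goblet cells had 1.67, 0.420 and 0.608, tuft cells 2.96, 1.52 and 1.65, and ISC 1.79, 1.23 and 1.55. Only in the duodenum did enterocytes stand above all of these classes by their counting intervals, since jejunal EECs and tuft cells, and ileal early enterocytes and EECs, lay at or above the enterocytes of their library. For Vdr, ISC (1.98, 1.51 and 1.55) and early enterocytes lay near the enterocytes, and goblet cells were lowest of the epithelial classes in every library (0.389, 0.210 and 0.234).

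In the fit of UMI sums over the 3 libraries (edgeR, quasi-likelihood test, adjusted after Benjamini and Hochberg over 12777 genes), 14 of the 18 comparisons of S100g, Vdr and Atp2b1 with enterocytes were called lower and none higher. The fit sets each class against the other genes of that class by TMM scaling, so its values differ from ratios of the levels above. Early enterocytes were called different in none of the 3 genes. The log2 differences were 0.36 for S100g (SE 0.61, adjusted p = 0.683), -0.21 for Vdr (SE 0.26, adjusted p = 0.558) and -0.71 for Atp2b1 (SE 0.32, adjusted p = 0.0843) by edgeR's quasi-likelihood test. Atp2b1 was called lower there without the filter on low genes, with clustering at resolution 1.2 and without the ileum, at a log2 difference down to -1.11 and an adjusted p down to 0.0220 (edgeR). In this contrast 20.8% of all genes were lower and 20.8% higher.

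In ISC, 2 members were lower. S100g differed by -2.14 on the log2 scale (SE 0.74, adjusted p = 0.0136) and Atp2b1 by -1.95 (SE 0.34, adjusted p = 2.00e-05), whereas Vdr gave -0.56 (SE 0.26, adjusted p = 0.0617, edgeR). Vdr was called lower in ISC under 7 of 14 alternatives, among them that without the duodenum, with an adjusted p down to 0.00997 (edgeR). Without TMM scaling its difference turned to 0.16. By level, Vdr in ISC was 0.877, 1.33 (1.12 to 1.55) and 1.23 (1.08 to 1.40) times that in enterocytes in the 3 libraries. Lower calls made up 30.8% of all genes and higher calls 33.7%. In goblet cells all 3 members were lower, where 21.1% of genes were lower and 18.7% higher. The differences were -2.19 for S100g (adjusted p = 0.0116), -2.46 for Vdr (adjusted p = 9.74e-08) and -2.20 for Atp2b1 (adjusted p = 8.78e-06, edgeR). Tuft cells were lower in all 3 members too, at -2.09 (adjusted p = 0.0190), -1.52 (adjusted p = 6.75e-05) and -1.43 (adjusted p = 0.00108, edgeR) in the same order, where 23.6% of genes were lower and 24.0% higher. The jejunal levels went the other way for some of these calls. S100g stood there at 5.78 times the enterocyte level in ISC, 2.44 times in goblet cells and 3.95 times (1.42 to 8.87) in tuft cells, and Atp2b1 at 1.27 times (1.02 to 1.57) in tuft cells. Jejunal Atp2b1 in ISC was 1.04 times the enterocyte level (0.862 to 1.23), an interval that includes 1, against 0.187 times in the duodenum and 0.477 times in the ileum.

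EECs, the cells the study set out to reach, were lower in all 3 members by the same test. S100g differed by -4.30 (SE 0.90, adjusted p = 0.000234), Vdr by -1.49 (SE 0.29, adjusted p = 7.88e-05) and Atp2b1 by -1.04 (SE 0.34, adjusted p = 0.0115, edgeR), against 25.9% of genes lower and 29.7% higher. By level, Vdr in EECs was 0.336, 0.956 (0.653 to 1.35) and 0.709 times that in enterocytes in the 3 libraries. Atp2b1 in EECs was 0.333, 2.00 and 1.01 times the enterocyte level, so that its lower level was seen in the duodenum alone. The fitted log2 difference of Atp2b1 ran from -1.65 to -0.29 over the alternatives. T cells differed by -3.68, -3.14 and -1.87 (adjusted p = 0.000132, 5.19e-09 and 3.82e-05, edgeR), against 31.1% lower and 32.4% higher. The S100g calls in ISC, goblet and tuft cells and the Atp2b1 call in EECs were the least stable: each was lost with DESeq2 and without the library term, and each but that in goblet cells without TMM scaling. The S100g calls in ISC and goblet cells were also lost with only the 2 classes in the fit. Without the duodenum the calls in ISC (adjusted p up to 0.278 over the alternatives), tuft cells (up to 0.451) and Atp2b1 in EECs (up to 0.515) were lost, and without the ileum those in goblet cells (up to 0.504), tuft cells and Atp2b1 in EECs. The S100g calls in EECs and T cells were lost only without the library term, and the Vdr calls in goblet cells, tuft cells, EECs and T cells under none of the alternatives. Trpv6 passed the filter on low genes through the duodenal library alone, so its fitted values are not used.

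**Figure D2:**
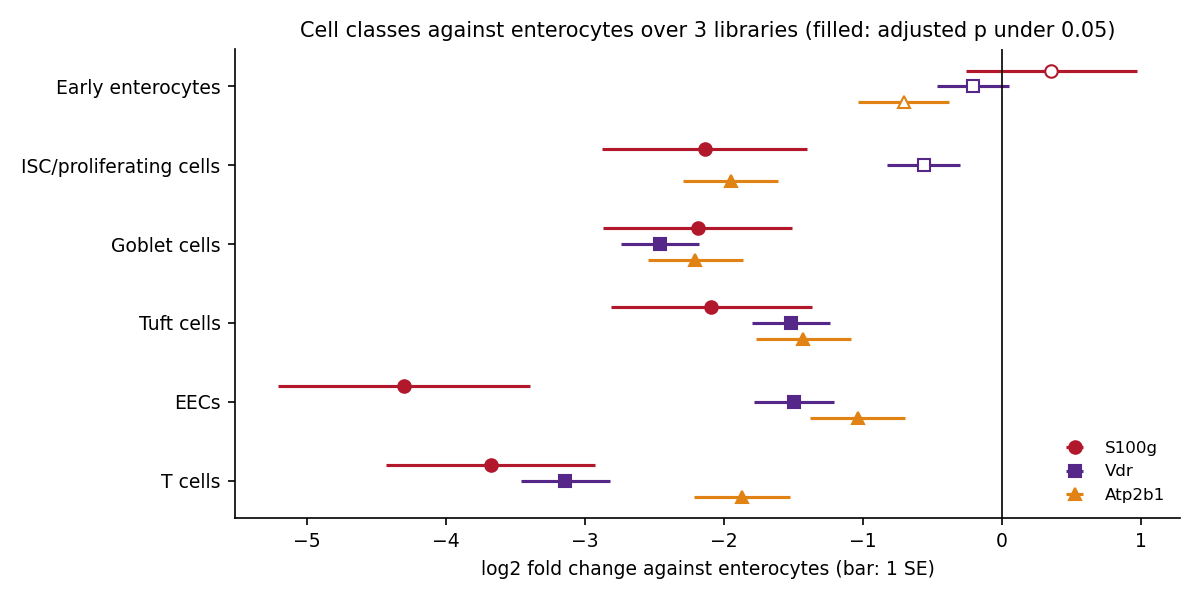
Log2 difference of each cell class from enterocytes for S100g, Vdr and Atp2b1 over the 3 libraries (edgeR's quasi-likelihood test, bars of 1 SE), with filled points for adjusted p under 0.05. The 14 filled points all lie below 0, from -1.04 for Atp2b1 to -4.30 for S100g, both in EECs, and the open points are the 3 genes in early enterocytes and Vdr in ISC.

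UMIs of all 12 enterocyte markers were found in ISC and in goblet, tuft, EEC, T, B and IgA B cells. The source of these marker UMIs, and their part in the values above, was not tested. In the duodenum their median level was 12.7% of the enterocyte level in goblet cells (range 9.35% to 42.6%), 14.2% in tuft cells (7.82% to 154%), 16.6% in EECs (8.81% to 52.8%), 9.84% in ISC (3.39% to 30.7%) and 29.0% in T cells (16.0% to 41.6%). S100g stood at 16.9%, 24.0%, 4.92%, 7.97% and 10.8% of its enterocyte level in the same classes. It was within the range of the markers in goblet cells, tuft cells and ISC, and below their lowest value in EECs and T cells. Jejunal S100g lay above the highest marker in ISC (578% against 27.3%, from 16 UMIs), goblet cells (244% against 16.8%, from 12 UMIs) and tuft cells (395% against 127%, from 6 UMIs). In jejunal EECs it rested on 1 UMI, at 1.29 times the enterocyte level (0.0323 to 7.31), and is not set against the markers. Ileal S100g lay above the highest marker in ISC (44.7% against 19.9%) and within the range in tuft cells. In ileal goblet cells, EECs and T cells it lay below the lowest marker, from 9, 2 and 14 UMIs. Jejunal T cells had no S100g UMI, with the markers there at a median of 8.93%.

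Along the villus, enterocytes and early enterocytes of each library were ranked by a score of tip against bottom landmark genes and cut into 5 equal bins, of which the lowest held 353 of 360, 284 of 284 and 409 of 411 early enterocytes. S100g in the duodenum stood at 19.5, 35.8, 43.3, 53.6 and 46.9 per 10000 from the lowest to the highest bin. The highest was 2.41 times the lowest (2.37 to 2.45). In the jejunum the levels were 0.210, 0.0178, 0.0257, 0.0123 and 0.0383, with a ratio of 0.182 (0.121 to 0.265). In the ileum they were 0.642, 0.324, 0.633, 0.202 and 0.317, with a ratio of 0.494 (0.425 to 0.572). The duodenal ratio was thus above 1 and both distal ratios were below it. Single cells carried the distal top values, which the counting intervals do not cover. The highest jejunal bin had 30 UMIs in 3 cells, 28 of them in 1 cell, and without it the level was 0.00255 and the ratio 0.0122. In the ileum 1 cell held 163 of the 226 UMIs of the highest bin, and without it the level was 0.0885 and the ratio 0.138. Another ileal cell held 152 of the 420 UMIs of the middle bin, whose level without it was 0.405.

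Trpv6 had the steepest villus course of the members in the duodenum. Its UMIs numbered 7, 35, 48, 93 and 248 from the lowest to the highest bin, and its levels were 0.00493, 0.0326, 0.0504, 0.116 and 0.375 per 10000. The highest bin was 76.0 times the lowest (36.3 to 191). Each of the 5 levels was above the one before it, in 1 library and with counting error only.

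Vdr was lower at the top than at the bottom in the distal libraries, while the duodenal interval included 1. Duodenal levels were 1.74, 2.26, 2.59, 2.56 and 1.64 per 10000, with a ratio of highest to lowest of 0.947 (0.881 to 1.02). Jejunal levels were 1.68, 1.63, 1.202, 0.746 and 0.315, a ratio of 0.187 (0.164 to 0.214). Ileal levels were 1.56, 1.48, 1.42, 1.11 and 0.847, a ratio of 0.543 (0.495 to 0.594). The lowest bins of the 3 libraries thus lay between 1.56 and 1.74, and the highest between 0.315 and 1.64.

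Atp2b1 was highest in the middle of the duodenal villus score, at 5.65, 10.4, 10.8, 9.87 and 7.34 per 10000. The ratio of highest to lowest bin was 1.30 (1.25 to 1.35). In the jejunum the levels ran from 1.23 to 0.949 (ratio 0.771, 0.706 to 0.840) and in the ileum from 4.20 to 1.99 (ratio 0.475). Jejunal and ileal levels were thus lower in the highest than in the lowest bin.

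**Figure D3:**
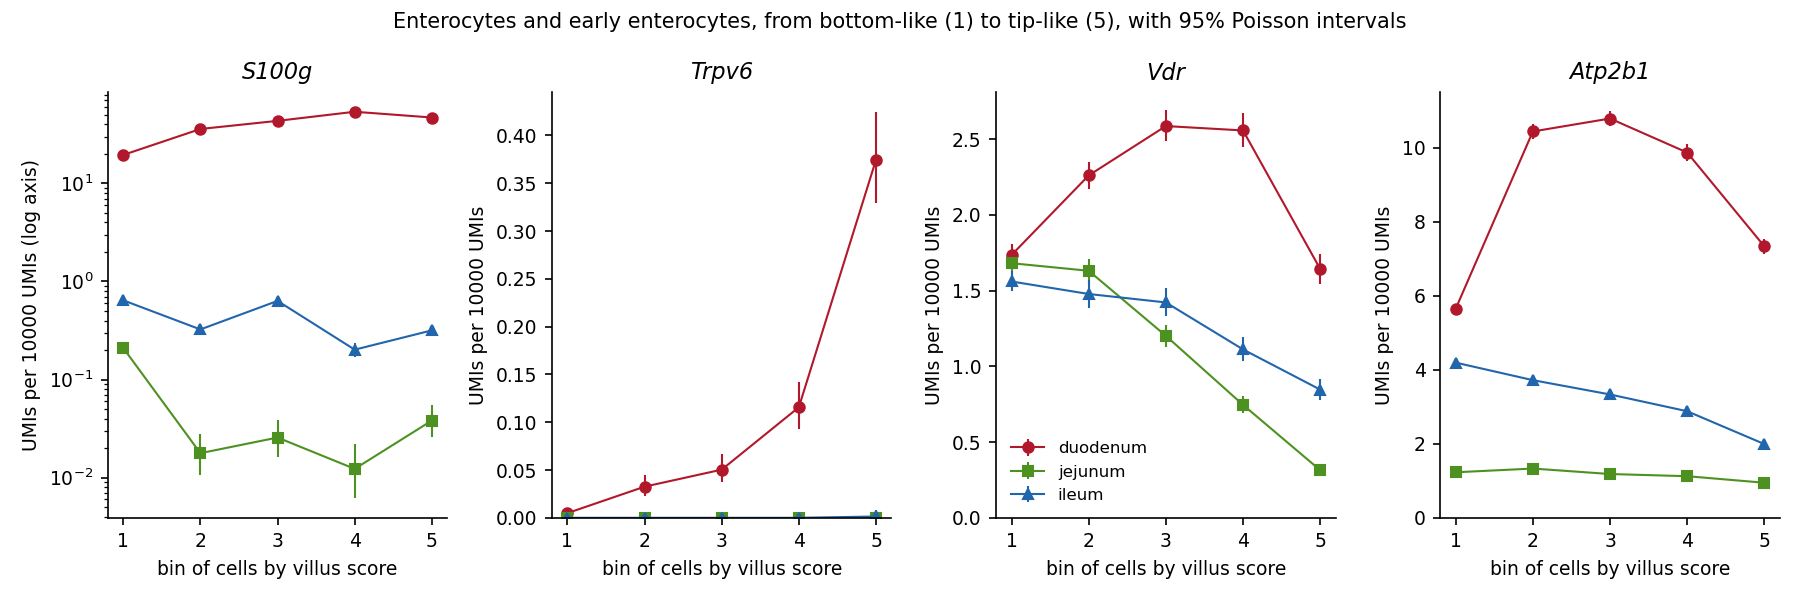
Level of S100g (log axis), Trpv6, Vdr and Atp2b1 (linear axes) in UMIs per 10000 UMIs, in 5 equal bins of enterocytes and early enterocytes from villus bottom (1) to tip (5), with exact 95% Poisson intervals, for the 3 libraries. Duodenal Trpv6 stands at 0.00493 in the lowest and 0.375 in the highest bin, and jejunal Vdr at 1.68 and 0.315.

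Over the 3 libraries none of S100g, Vdr and Atp2b1 was called between the highest and the lowest bin, at log2 differences of -0.55 (SE 0.70, adjusted p = 0.492), -0.49 (SE 0.29, adjusted p = 0.155) and 0.21 (SE 0.19, adjusted p = 0.350) by edgeR's quasi-likelihood test, adjusted after Benjamini and Hochberg. At an unadjusted p under 0.05 the count was 0 as well, and with DESeq2 it was 0. Of 11064 genes, 37.2% were called lower and 33.7% higher. None of the steps between neighbouring bins was called for these 3 genes. Vdr was called lower without the duodenum, at -0.88 (adjusted p = 0.0393, edgeR), without TMM scaling (-1.09, adjusted p = 0.0111, edgeR) and without early enterocytes (-0.72, adjusted p = 0.0377, edgeR), and the adjusted p over all alternatives reached 0.950. Atp2b1 was called higher without the ileum, at 0.54 (adjusted p = 0.0390, edgeR). The depth also differed along the score, with median UMIs of 18214 in the lowest and 8562.5 in the highest duodenal bin.

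Within the duodenum, S100g varied widely between single enterocytes. The median cell had 5.34 UMIs per 10000, the lower quartile 0.804, the upper quartile 56.5 and the highest decile began at 125. After thinning to 2000 UMIs, 1298 of 3176 enterocytes (40.9%) had no S100g UMI, 993 (31.3%) had 1 to 9 and 885 (27.9%) had 10 or more. These groups were cut after the values had been seen and are described without a test. Median depths were alike, at 12723, 11735 and 12281 UMIs, and so were median mitochondrial shares, at 29.0%, 30.6% and 27.3%.

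The other members were ordered as S100g in these cells of 1 library. Atp2b1 stood at 3.35, 10.4 and 18.0 per 10000 in cells with none, 1 to 9 and 10 or more S100g UMIs. Vdr stood at 1.71, 2.29 and 3.05. Trpv6 stood at 0.00350, 0.0446 and 0.316, from 6, 54 and 364 UMIs. Slc30a10 (0.849, 2.13 and 3.37) and the iron exporter Slc40a1 (0.642, 4.19 and 8.05), which was added after its values were seen, had the same order. Slc34a2 had the reverse order, at 1.09, 0.510 and 0.0799, and Cyp3a11 had none, at 15.5, 14.6 and 18.0. The 5 villus bins also hold early enterocytes, nearly all of them in the lowest bin. Within each bin, with cells grouped by S100g in the same way, Atp2b1, Vdr and Trpv6 were ordered likewise. In the highest bin Atp2b1 stood at 1.69, 5.20 and 16.9, and in the lowest at 2.59, 5.98 and 14.9. For Trpv6 the order in the lowest bin rests on 1, 3 and 3 UMIs, with overlapping intervals. Intervals of neighbouring groups also overlapped for Trpv6 in bins 3 and 4 and for Vdr in bins 1 and 2.

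**Figure D4:**
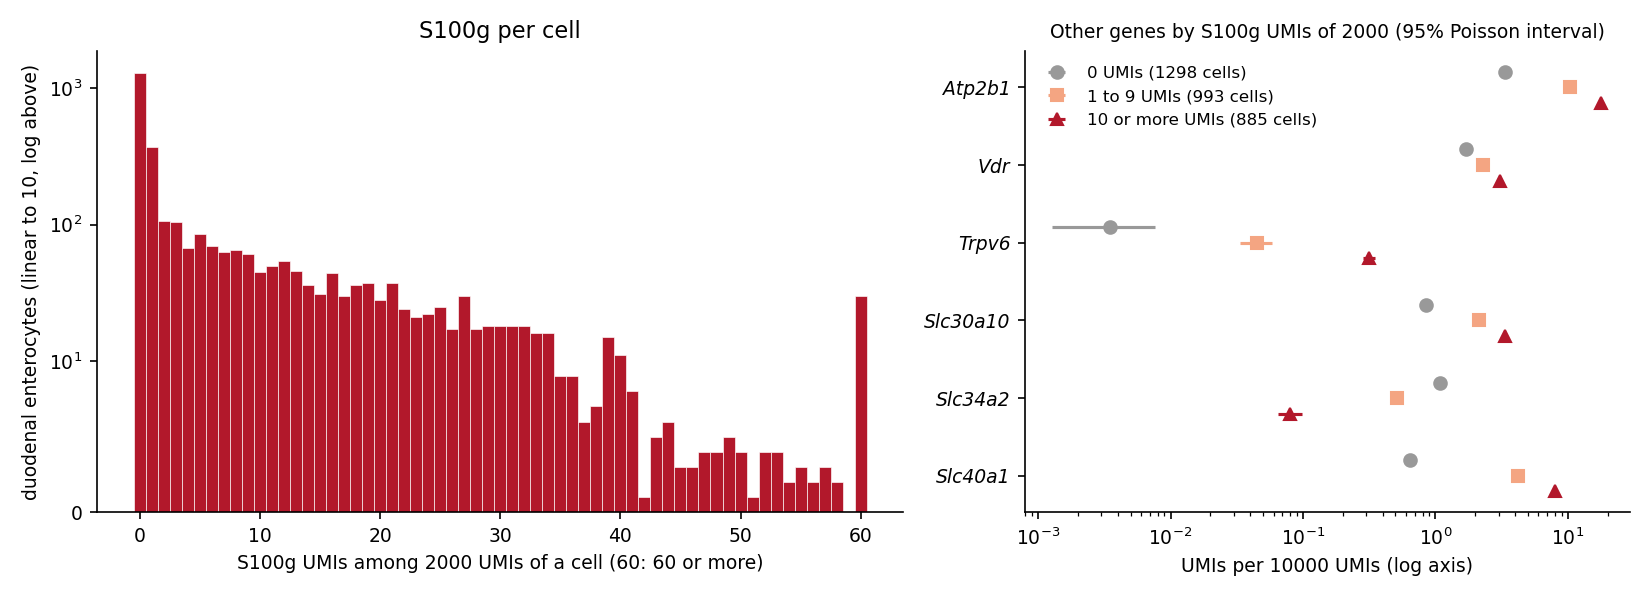
Left, number of duodenal enterocytes by S100g UMIs after thinning to 2000 UMIs per cell (count axis linear to 10 and log above, last bar 60 or more). Right, levels of other genes (UMIs per 10000 UMIs, log axis, exact 95% Poisson intervals) in cells with none, 1 to 9 and 10 or more S100g UMIs, where Atp2b1 stands at 3.35, 10.4 and 18.0 and Slc34a2 has the reverse order.

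Cells with a Trpv6 UMI made up 210 of 3580 duodenal enterocytes and early enterocytes (5.87%), and 0.838%, 3.21%, 4.61%, 7.82% and 12.8% of the bins from lowest to highest. S100g stood at 132 per 10000 in cells with a Trpv6 UMI (130 to 133) and at 31.5 (31.3 to 31.7) in those without. Atp2b1 stood at 18.3 against 8.06, Vdr at 3.50 against 2.06 and Slc30a10 at 3.35 against 1.68. The median depth was 11955 UMIs in cells with a Trpv6 UMI and 12792 in those without, but within each of the 5 bins the cells with a Trpv6 UMI were deeper, from 18551 against 18214 in the lowest bin to 9530 against 8456 in the highest. The part of depth in these values was not tested. In the highest bin S100g was 152 in the 92 cells with a Trpv6 UMI and 29.3 in the 624 without. In the lowest bin, with 6 such cells, S100g was again higher (37.6 against 19.3), but the other genes were not. Atp2b1 stood there at 4.78 with and 5.66 without a Trpv6 UMI and Vdr at 1.68 and 1.74, both with overlapping intervals. Slc30a10 stood at 0.587 (0.236 to 1.21), from 7 UMIs, with a Trpv6 UMI and at 1.34 (1.28 to 1.40) without. The intervals cover counting error and not the spread between cells, so with 6 cells these values, that of S100g included, describe those cells only.

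**Figure D5:**
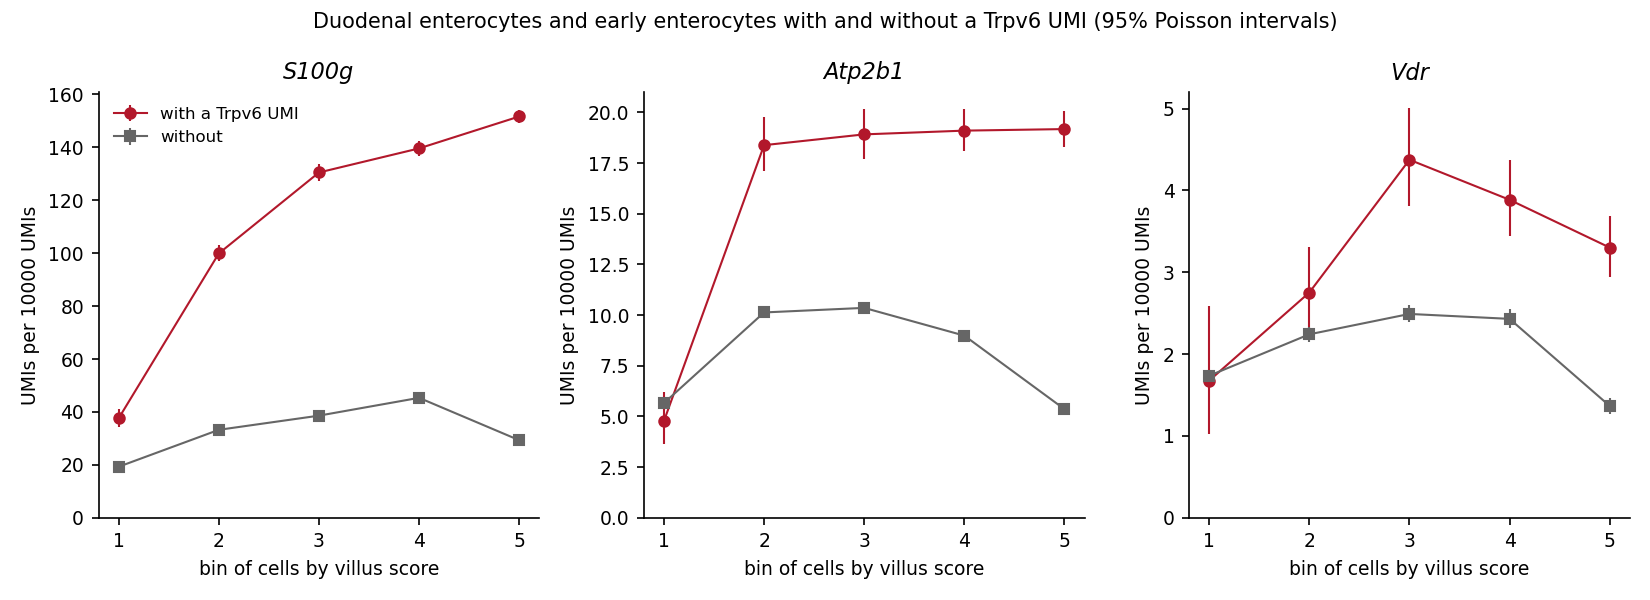
Level of S100g, Atp2b1 and Vdr (UMIs per 10000 UMIs, 95% Poisson intervals) in duodenal enterocytes and early enterocytes with and without a Trpv6 UMI, in 5 bins from villus bottom (1) to tip (5). In the highest bin S100g stands at 152 with and 29.3 without a Trpv6 UMI, and in the lowest bin the intervals of Atp2b1 and Vdr overlap.

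The genes most like each member were sought over 28 sums of library and class and over 15 sums of library and villus bin. The points share libraries and depth, so the correlations are descriptions. Over classes S100g was most like Sult6b2 (r = 0.933), Slc40a1, the iron exporter (0.929), Meis2 (0.920), Plut (0.917) and the alkaline phosphatase Akp3 (0.904). Over bins Slc40a1 was first (0.981), then Reep5 (0.975), Suz12 (0.966), Lima1 (0.965) and Nipal2 (0.964). Trpv6 was most like Ctse over bins (0.992), Vdr most like Tpi1 over classes (0.937), an enzyme of glycolysis, and like 1110032A03Rik over bins (0.970), and Atp2b1 most like Slc25a51, a mitochondrial carrier, over classes (0.879) and Slc35a3 over bins (0.954). Among members, S100g and Atp2b1 were alike over bins (0.938) and less so over classes (0.649), and Vdr and Atp2b1 gave 0.771 over classes.

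Of the 49 other genes of the pathway list, 35 passed the filter on low genes in the class fit. In early enterocytes 5 were higher than in enterocytes and 11 lower, against 20.8% of all genes in either direction, with a median log2 difference of -0.58 against -0.08 over all genes. Fgfr4, sparse in enterocytes, was among the higher genes, so the higher count is not read against that share. Slc34a2 (-3.13, adjusted p = 7.36e-07), Cyp3a11 (-3.19, adjusted p = 1.23e-06) and Slc30a10 (-1.47, adjusted p = 0.000128) were lower, and Cldn2, a claudin that lets cations pass between cells, was higher (3.53, adjusted p = 5.85e-05, edgeR's quasi-likelihood test). In ISC 3 were higher and 16 lower, against 33.7% and 30.8% of all genes (median -0.98 against 0.03). Fgfr4 was among the higher genes here too, with the same limit. The lower genes included Slc34a2 (-5.64, adjusted p = 3.51e-10) and Cyp3a11 (-5.34, adjusted p = 7.21e-10, edgeR). Cldn2 was higher there as well (4.59, adjusted p = 2.37e-06, edgeR).

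In EECs 11 genes of the list were higher and 16 lower, against 29.7% and 25.9% of all genes (median -0.29 against 0.05 over all genes). Among the higher genes were Slc8a1, Cacna1d, Casr, Fgfr4, Klb, Stc2, Atp2b2 and Atp2b4, which were sparse in enterocytes. The higher count and the median are therefore not read against those of all genes. Slc34a2 was lower (-4.44, adjusted p = 3.18e-08, edgeR). Atp2a3 (4.07, adjusted p = 1.48e-06) and Atp2a2 (0.95, adjusted p = 0.000653, edgeR), pumps that load the endoplasmic reticulum, were higher. Atp2b4, another plasma membrane pump, was called higher too. In enterocytes and early enterocytes Atp2b4 had at most 28 UMIs per villus bin and library, so its fitted value is not used. These 3 lay outside the 8 called genes of largest difference and were chosen after their values were seen, since they had UMIs in enterocytes of every library. Other genes had next to no UMIs in enterocytes and entered the fit through the classes where they are high, so their counts are given in place of fitted values. The sodium-calcium exchanger Slc8a1 had 14, 5 and 27 UMIs in EECs (0.177, 0.170 and 0.345 per 10000) and at most 1 per library in enterocytes. The voltage-gated channel Cacna1d had 37, 7 and 7 UMIs in EECs (0.469, 0.238 and 0.0894 per 10000) and 5, 0 and 2 in enterocytes. The calcium-sensing receptor Casr had 9, 2 and 6 UMIs in EECs and 0, 0 and 1 in enterocytes. The growth factor receptor Fgfr4 (3, 3 and 2), its partner Klb (3, 0 and 11), the hormone Stc2 (4, 0 and 1) and Atp2b2 (0, 0 and 3) had few UMIs in EECs. Cldn3, Cldn7, Cldn15 and Tjp1, the 4 tested genes listed under the paracellular route, were lower in EECs, while the claudins Cldn2 (1.44, adjusted p = 0.174) and Cldn12 (-0.29, adjusted p = 0.538, edgeR) were not called. These claudins and Tjp1 were also chosen after their values were seen.

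In tuft cells 6 were higher and 14 lower, against 24.0% and 23.6% of all genes (median -0.56 against -0.05). Among the higher genes were Atp2b2, Fgfr4 and Casr, which were sparse in enterocytes, so the higher count is not read against that share. Atp2a3 was at 8.30 (adjusted p = 1.33e-10, edgeR). It stood at 10.1, 13.5 and 14.9 per 10000 in tuft cells and at most 0.0839 in enterocytes. The plasma membrane pump Atp2b2 had 39, 28 and 98 UMIs in tuft cells and at most 1 per library in enterocytes. Goblet cells had 3 higher and 11 lower, against 18.7% and 21.1% of all genes (median -0.74 against -0.07), with Atp2a3 at 6.36 (adjusted p = 4.82e-09, edgeR). T cells had 5 higher and 18 lower, against 32.4% and 31.1% of all genes (median -1.42 against -0.01). Among the higher genes were Atp2b4, Atp2b2 and Stc2, which were sparse in enterocytes. Their fitted values are not used, and the higher count is not read against that share.

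Along the villus 29 of the 49 passed the filter, 14 were higher and 6 lower in the highest bin, against 33.7% and 37.2% of all genes (median 0.46 against -0.10 over all genes). Slc34a2 (3.41, adjusted p = 4.14e-05), Cyp3a11 (2.10, adjusted p = 0.000528) and S100a10 (1.75, adjusted p = 2.45e-06, edgeR) were higher. The level of Cyp3a11 in the highest bin was 3.11, 0.998 (0.961 to 1.04) and 9.08 times that in the lowest, and the jejunal interval included 1. Atp2b4, also among the genes called higher, had 1, 0 and 2 UMIs in the lowest bin and 28, 13 and 19 in the highest, so its fitted value is not used. The higher count and the median are therefore not read against those of all genes. Cldn2 was lower (-4.66, adjusted p = 2.02e-05) and so was Cubn (-1.59, adjusted p = 0.00190, edgeR).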

How the data were processed

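The deposited files were gene by barcode matrices of raw UMI counts, 1 per segment, which the authors had made with Cell Ranger 3.0.2. The builds GRCm38 and mm10 are named in the submitters' processing notes, and 30934 of the 31053 gene identifiers (99.6%) were found in the GENCODE annotation of GRCm38. No column of another sample was present. The study's own limits were applied to cells, which had to hold between 800 and 50000 UMIs, between 200 and 6000 genes, and no more than 40% of mitochondrial UMIs. The libraries were integrated in Seurat 5.3.0 (R 4.3.3) on 2000 variable genes and clustered on 30 principal components (resolution 0.8), which gave 22 clusters. The members and the pathway list were left out of the variable genes, so that no class was defined by them. Clusters were named from marker lists, by a rule that was set after the clusters had been seen. A list other than the enterocyte list needed 0.4 of its highest level over clusters, and a cluster with 2 lists above 0.6 stayed mixed. The enterocyte list had no such limit. Its clusters stood at 0.448 or more in the main clustering and as low as 0.302 in an alternative one. Clusters 4, 12 and 20 stayed unnamed. No list passed 0.4 in clusters 4 and 20, and cluster 12 had few UMIs and no own marker among its leading genes. Scrublet (scanpy 1.11.5) called 0, 0 and 146 doublets in the duodenum, jejunum and ileum. With no call in 2 libraries doublets were left in, and the called cells were left out only in an alternative.

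A level is the summed UMI count of a gene divided by the summed total of the same cells, times 10000. Its 95% interval is the exact Poisson one (scipy 1.17.1). Ratios of 2 levels carry the exact interval of a ratio of 2 counts. Shares of cells with a UMI were taken after thinning each cell to 2000 UMIs, leaving out shallower cells. UMI counts were summed per library and class (at least 10 cells) or per library and villus bin, and tested with edgeR 4.0.16 (quasi-likelihood test, TMM, filterByExpr, library as a block, Benjamini-Hochberg over all genes, threshold 0.05). With the 3 libraries coming from 3 segments, the p-values measure agreement across segments within 1 pool of mice. The villus score was the mean of 8 tip landmarks minus the mean of 8 bottom landmarks, scaled within each library. DESeq2 1.42.0, other filters, other clusterings and fits without each library were alternatives. The 3 libraries share the replicate number 1, which names no pairing, and each library enters as its own block. The named genes were the members whatever their values, pathway genes among the 8 called ones of largest absolute log2 difference in a contrast (others are said to be chosen after their values were seen), and the 5 genes most like each member by Pearson correlation of log2 (UMIs per 10000 + 0.05). The members and lists were chosen with earlier results of these data known. The tests were checked on simulated data.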

Additional observations from a re-analysis of the deposited data

Results flagged for a closer look

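In 11 comparisons of the members the ratio lay above 1 in one library and below 1 in another, with counting intervals on opposite sides of 1. There was 1 library per segment, so these differences between segments were not tested.

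S100g in early enterocytes was 13.4 times the enterocyte level in the jejunum and 0.388 times it in the duodenum. In ISC the ratios were 5.78 in the jejunum and 0.0797 in the duodenum. Goblet cells gave 2.44 in the jejunum, from 12 UMIs in 2 cells, and 0.0446 in the ileum, and tuft cells gave 3.95 in the jejunum, from 6 UMIs in 1 cell, and 0.110 in the ileum. From the lowest to the highest villus bin S100g gave 2.41 in the duodenum and 0.182 in the jejunum, or 0.0122 without the 1 cell that held 28 of the 30 UMIs of the jejunal top bin.

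Vdr in early enterocytes gave 1.39 in the jejunum and 0.675 in the duodenum, and in ISC 1.33 and 0.877. Atp2b1 in early enterocytes gave 1.2001 in the ileum and 0.403 in the duodenum. In tuft cells it gave 1.27 in the jejunum and 0.309 in the duodenum, and in EECs 2.00 and 0.333. Between the highest and the lowest bin Atp2b1 gave 1.30 in the duodenum and 0.475 in the ileum.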

How the results depend on the processing

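Of 318 recomputed log2 differences of S100g, Vdr and Atp2b1, 271 kept their direction and their side of the threshold, 21 lost a call, 14 gained one and 12 turned direction. The number of member comparisons of classes called was 14 of 18 in the report, 8 without the replicate block (the library term), and 12 to 14 with each library left out. Between villus bins it was 0, 1 with enterocytes alone or without TMM scaling, and 0 to 1 with each library left out. The share of duodenal enterocytes with an S100g UMI was 66.4% when cells were thinned to 4000 UMIs. All turned values were of comparisons that were not called in the report. S100g in early enterocytes was -1.43 without the replicate block, and from -0.41 without the jejunum to 1.32 without the duodenum. Vdr was 0.081 without TMM scaling and 0.0023 without the duodenum in early enterocytes, and 0.16 without TMM scaling in ISC. Between bins, S100g was 0.55 with enterocytes alone, 1.60 without the replicate block, and from -1.21 without the duodenum to 0.49 without the jejunum. Vdr ran from -0.88 without the duodenum to 0.016 without the jejunum. Atp2b1 was -0.18 with enterocytes alone, -0.41 without TMM scaling, and from -0.031 without the duodenum to 0.54 without the ileum. The cause was not tested. Leaving out TMM scaling moved the median log2 difference of all genes to 0.83 in EECs (6043 higher and 1691 lower calls, from 3801 and 3311), 0.74 in ISC (6023 and 2345, from 4303 and 3932), 0.75 in T cells (6016 and 2523, from 4135 and 3975), 0.50 in tuft cells (4713 and 1799, from 3068 and 3016), 0.19 in early enterocytes (3544 and 1642, from 2654 and 2655) and -0.69 between bins (2091 and 5953, from 3729 and 4117). With early enterocytes included, Trpv6 fell under the level asked for. The villus values without the cell of most S100g UMIs were added after the data had been seen. ISC formed no class without integration or with the members among the variable genes. With 1 library per segment, depth limits Trpv6 and Cyp24a1 to counts.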
